A study of Drosophila melanogaster with 2 samples.

Results

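Of the reproducible binding regions of the transcription factor Mnt on the dm6 genome of Drosophila melanogaster, 505 (6.78%) were strong and had neither of 2 sequence elements at the summit. These 505 peaks were chosen by a rule on measured signal and on sequence. The deposited signal had to be 361.9 or more, which 746 peaks reached, and neither the palindromic E-box CACGTG nor the palindromic DNA replication-related element (DRE) TATCGATA, searched on both strands, could lie within 100 bp of the summit. The other strong peaks were 208 with CACGTG and 33 with the DRE alone. Under the threshold, 5885 peaks had neither element, called weaker peaks with neither motif here, and the remaining 820 of the list had at least 1 of the elements. The study was a chromatin immunoprecipitation with sequencing (ChIP-seq) of whole adult female flies of 1 transgenic line, in which Mnt carries GFP at its C-terminal end and is pulled down through that tag with an anti-GFP antibody. The labels call the line an insertion targeting Mnt and give the age of the flies as unknown; the promoter that drives the fusion and whether untagged Mnt remains were not stated in these labels. The design holds a single group of 2 biological replicates, which leaves no groups of samples to test against each other. A peak stands for all tissues of the fly at once, and a site bound in few cells cannot be told apart from one bound weakly in many.

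Mnt is a basic helix-loop-helix leucine zipper protein that pairs with Max, as Myc does, and binds the same E-box. In flies, Myc with Max activates genes of cell growth and ribosome production, while Mnt with Max counteracts it at shared targets. Helix-loop-helix dimers of this family can also bind E-box variants that differ from CACGTG at a base or so, usually with lower affinity in vitro.

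The first set of sequences shows a variant of the E-box near the summit in strong peaks with neither motif that hold one. A panel of 5 variants was searched on both strands: CATGTG was one, CACGCG another, and the rest were CATGCG, then CACGAG, and lastly CACGTT. Each line gives 30 bases of the Release 6 (dm6) reference, read so that the variant, in capitals, is in the listed orientation.
vig: acagagcgcccaCATGTGttcttggtatac
rdx: tactatagtgcaCATGTGcgccctgcttct
Ant2: ttcatacacactCATGTGcgactgggcggt
Hsp60A: cagacggcattgCATGTGctgctactgctt
CG3071: cgtatttgtgtgCACGCGgatttggctaaa
Mondo: tactcgtaaacaCACGCGgatctgatggaa
CG15771: ccactgttttccCATGCGccctcgcacttt
CG9008: gaacgttttttgCACGAGttttttccatac
S6k: ttgcgagtgaaaCACGAGgtgatttgctga
Bx: ttcgcactagcgCACGTTttcccaccacgc
The vig sequence lies at chr2L:15068064-15068093 (plus strand), in an intron, with the middle of the hexamer 7 bp from the summit. At rdx it lies at chr3R:14020777-14020806 (plus), in an intron 5155 bp downstream of the gene's nearest transcription start site (TSS), and at Ant2 at chrX:10786101-10786130 (plus), also intronic. The Hsp60A sequence is at chrX:11108968-11108997 (plus), in an intron, and the CG3071 sequence at chrX:2262766-2262795 (plus), between genes. Those of Mondo (chr2L:21309398-21309427, plus), CG15771 (chrX:5755580-5755609, plus), CG9008 (chr2L:13780073-13780102, minus) and S6k (chr3L:5810867-5810896, plus) are in 5′ UTRs. The Bx sequence (chrX:18515367-18515396, plus) is intergenic, upstream of the start shared by Bx and HisRS, with the hexamer 2 bp from the summit.

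A second set shows the 30 bases centred on the summit, on the plus strand, in 4 of the strongest peaks where none of the 5 variants lay within 100 bp. Capitals are absent because no E-box variant of the panel, CAGCTG, DRE core or Motif 1 lay in the window.
CG14100: aaactctaagcaaatgaatttttgcgatac
CG11050: catatttgcttaaaattaatacaagattag
Ugalt: aacaaaatttaaaagtgcattgtgcatttc
Gapdh2: taactgtctaagatcagaagtttttaaagt
These lie at chr3L:19590595-19590624 (intergenic), chr2L:6612685-6612714 (intron of CG11050), chrX:2703874-2703903 (intergenic) and chrX:15867965-15867994 (intergenic). The last 2 lines of sequence show peaks with Motif 1, a core promoter element of housekeeping genes in flies, with its letters GGTCACAC in capitals.
CG9630: gggtgtgaaatGGTCACACtatcgcgcaca
RpL30: atccccccgtcGGTCACACcaacacaaacg
They are on the minus strand at chr3R:8269871-8269900 and chr2L:19009261-19009290, both in 5′ UTRs.

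The strong peaks with neither motif ranged in pooled signal from 361.9 to 2059, with a median of 485. The median was 680 in strong peaks with CACGTG and 128 in weaker peaks with neither motif. These values describe what the rule selected. The 2 members just inside the threshold were at Rbp6 (362.1) and D2hgdh (361.9), and the peaks just outside it at eRF3 (361.5) and Ip259 (361.5). The signal is the authors' own value per region; its scale is not stated in the files, and with no read counts beside it the sequencing depth behind it is unknown.

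Both replicates listed a region at every one of the 505 peaks, by an overlap of 1 bp or more, as at all other strong peaks; over the whole list the shares were 99.8% in replicate 1 and 97.8% in replicate 2. In replicate 1 their signal had a lowest value of 162, a median of 348 and a highest of 1499, and in replicate 2 the values were 19.3, 152 and 798. In strong peaks with CACGTG the lowest, median and highest were 180, 465 and 1719 in replicate 1, and 71.3, 221 and 721 in replicate 2. Replicate 1 was the higher of the pair at most members, with ratios of replicate 1 to replicate 2 from 0.818 to 16.9. The median ratio of replicate 1 to replicate 2 was 2.43 in strong peaks with neither motif, 2.17 in those with CACGTG and 3.30 in those with the DRE. The levels of the 2 replicates are on different scales, so ranks within each replicate are given as well. A top list about as long as the set of 746 strong peaks was taken from each replicate by signal. In the list of replicate 1 were 444 of the 505 (87.9%), against 93.8% of strong peaks with CACGTG, and in that of replicate 2 were 362 (71.7%), against 93.3%. Strong peaks with the DRE were in these lists in 93.9% and 45.5% of cases. In both top lists were 302 members (59.8%), against 87.0% of those with CACGTG and 39.4% of those with the DRE, and a single member was in neither. The gap between members and peaks with CACGTG was wider in replicate 2 than in replicate 1. The pooled signal was made from these same replicates, so their ranks are not independent of the rule.

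**Figure D1:**
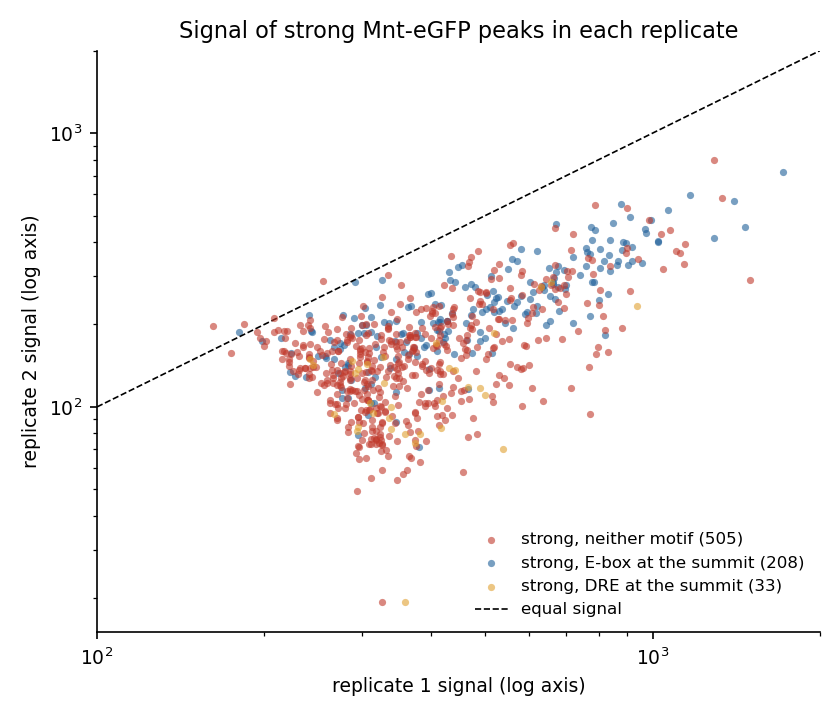
Signal in replicate 1 (x axis) and replicate 2 (y axis), both on log axes, for the 505 strong peaks with neither motif, the 208 with CACGTG and the 33 with the DRE; each point is a peak and the dashed line marks equal signal. Most points lie below the line, and the points with neither motif spread farther down in replicate 2, to 19.3, than those with CACGTG, whose lowest value there was 71.3; those with the DRE reach 19.5.

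The replicates' summits lay close to the pooled ones. Summits in replicate 1 lay a median of 6 bp from the pooled summit, and those in replicate 2 a median of 15 bp, against 3 and 9 bp in strong peaks with CACGTG. Around the replicate 1 summits, 502 of 505 windows (99.4%) had neither motif, and around the replicate 2 summits 488 (96.6%). CACGTG lay in 3 of the windows in replicate 1 and in 13 in replicate 2. These windows are largely the sequence the rule was applied to, so the counts are no separate support for it.

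Some peaks were ranked very differently by the 2 replicates. CG14100 had a signal of 1499 in replicate 1 and 291 in replicate 2, rank 2 and rank 96. The shared start of Rev1 and MED30 had 326 and 19.3, rank 475 and rank 9901. By the ratio of ranks these were followed by mRpS10 (772 and 94.0, rank 67 and 1161), an intron of Trl, the gene of GAGA factor (455 and 57.9, rank 247 and 2795), and RpS27 (713 and 117, rank 82 and 762). At 3 of these the matched replicate region had its summit well away from the pooled one: by 169 bp in replicate 1 at mRpS10, where another peak with CACGTG lay 206 bp away, and in replicate 2 by 101 bp at Rev1 and 96 bp at Trl. Their replicate values may therefore belong to different summits. The opposite order was seen at rdx (789 and 545, rank 59 and 7), l(2)k01209 (255 and 287, rank 769 and 98), CG9008 (1288 and 798, rank 7 and 1), Keap1 (162 and 197, rank 1710 and 259, at a summit 380 bp into the gene) and CG9331 (667 and 450, rank 102 and 17). Of the 5 peaks favoured by replicate 1, a variant of the E-box was found at Rev1 alone; all 5 favoured by replicate 2 had at least 1. That count was chosen after the values had been seen.

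The strongest members were a mixed group of promoters. CG9008 led, with a signal of 1288 in replicate 1 and 798 in replicate 2 (region chr2L:13779798-13780367, summit 68 bp downstream of the TSS). Then came vig, which encodes a partner of the RNA interference complex (1332 and 579; region chr2L:15067728-15068399). The start shared by Bx, a LIM-only protein gene, and HisRS, the histidyl-tRNA synthetase gene, had 1144 and 392.4. In pooled signal these 3 regions had 2059, 1903 and 1533, and all 3 stood among the 32 strongest regions of either replicate. CG14100, described above, stood between vig and this start, with a pooled signal of 1784. Among the next were D19B, a zinc finger gene (1076 and 443), RpL34b, one of a pair of paralogues for a large-subunit ribosomal protein (1101 and 370), the start shared by bbx and waw (1037 and 427), Ugalt, the transporter of UDP-galactose (1138 and 332), and CG15771 (985 and 482). Of the 25 strongest members, 22 lay within 500 bp of a protein-coding TSS and 15 within 100 bp. In all, 17 of the 25 had at least 1 of the 5 variants, and 3 had Motif 1. The lowest rank among the 25 was 102 in replicate 1 and 130 in replicate 2.

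Lower among the 25 came genes of several kinds. Gapdh2, a glycolytic enzyme gene, had 1044 in replicate 1 and 319 in replicate 2, with the summit 165 bp upstream of the TSS and no variant. Hsp60A, the mitochondrial chaperonin gene, had 895 and 366 and a CATGTG 17 bp from the summit. S6k, which encodes a kinase that acts downstream of TOR in growth control, had 767 and 350 and the variants CACGCG and CACGAG. Csl4, a subunit gene of the RNA exosome that shares its start region with Nup160 (782 and 306), CG12301 (942 and 347) and CG6073 (777 and 343) had none of the 5 variants. CACGTG itself lay farther out in each of their regions, 120, 136 and 252 bp from the summit in that order. At nudC, a gene of dynein-dependent nuclear movement, the CATGTG lay 3 bp from the summit (803 and 268). Peaks with a variant and peaks without one both occurred through the whole of this top group.

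Strong peaks with neither motif lay mostly at gene starts. A TSS lay within 500 bp of 411 summits (81.4%; 95% exact binomial interval 77.7 to 84.7%), against 88.0% (82.8 to 92.1%) of strong peaks with CACGTG, 97.0% of those with the DRE, and 70.2% (69.0 to 71.4%) of weaker peaks with neither motif. Under the same rule applied to each replicate alone, the share was 80.8% in replicate 1 and 75.3% in replicate 2, a mean of 78.0% ± 3.87 (SD, n = 2). All such intervals treat peaks as independent and cover counting error only. The summits were placed less tightly at the start than those with CACGTG. Within 100 bp were 50.1% (45.6 to 54.5%), against 73.6% (67.0 to 79.4%) of strong peaks with CACGTG and 44.4% of weaker peaks with neither motif. The median distance was 99 bp, against 36 bp in strong peaks with CACGTG, 48 bp in those with the DRE and 131 bp in weaker peaks with neither motif.

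**Figure D2:**
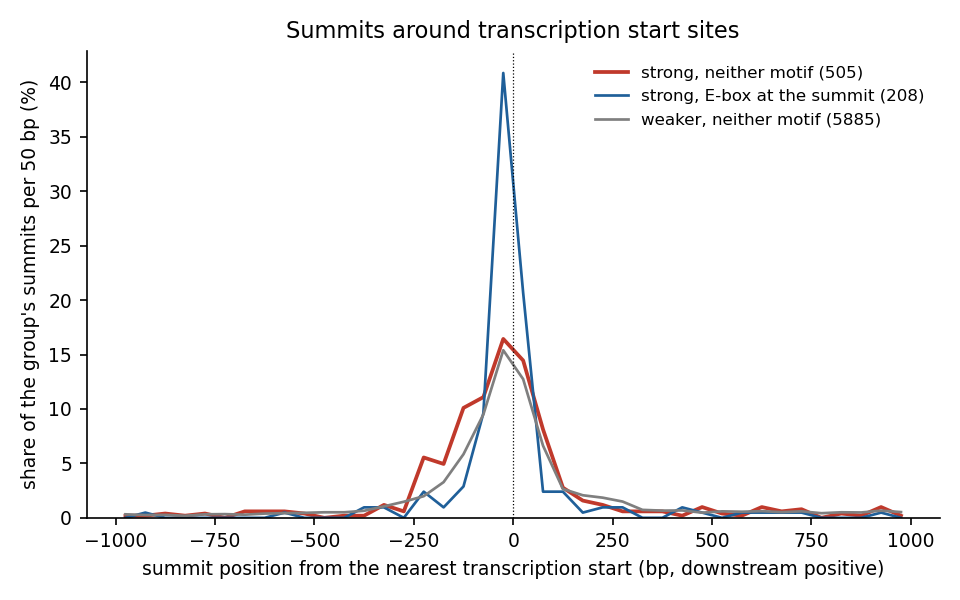
Share of each group's summits (y axis, percent per 50 bp) by position from the nearest TSS (x axis, bp; positive is downstream) for 505 strong peaks with neither motif, 208 with CACGTG and 5885 weaker peaks with neither motif. The 50 bp just upstream of the start hold 16.4% of summits with neither motif and 40.9% of those with CACGTG; from 250 to 100 bp upstream the curve of strong peaks with neither motif lies above both others.

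Upstream of the start the 3 profiles differed. Between 150 and 100 bp upstream lay 10.1% of strong peaks with neither motif, 2.88% of strong peaks with CACGTG and 5.85% of weaker peaks with neither motif. Between 250 and 200 bp upstream the shares were 5.54%, 2.40% and 1.99%. By annotation, 35.0% of the 505 summits were in introns, 31.5% in 5′ UTRs and 30.1% between genes, close to the 36.7%, 28.7% and 28.2% of weaker peaks with neither motif. Coding exons held 1.58%, exons of non-coding RNAs 1.39%, and 3′ UTRs 0.396%. Strong peaks with CACGTG were in introns in 21.2% of cases and between genes at 104 of 208 summits. Protein-coding genes started on each strand no farther than 500 bp away at 30.5% (26.5 to 34.7%) of the 505 summits. The shares were 36.5% of strong peaks with CACGTG, 75.8% of those with the DRE and 18.6% of weaker peaks with neither motif. Whether such starts point away from each other was not checked. Base composition differed little, with a median of 42.3% G and C within 100 bp of the summit, against 42.3% with CACGTG and 42.8% in weaker peaks with neither motif.

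Beyond 500 bp of any TSS lay 94 of the 505 summits (77 in introns, 11 between genes), a median of 1095 bp away. CG11050 had the strongest of them, 1013 bp into the gene, with 1119 in replicate 1 and 365 in replicate 2. An intronic summit of Ant2, the gene of an adenine nucleotide carrier of mitochondria, had 898 and 533 at 810 bp downstream of the TSS. The summit of rdx, whose protein is an adaptor for Cullin-based ubiquitin ligation, had 789 and 545 at 5155 bp. CG16753 (879 and 195), Tlk, the gene of the Tousled-like kinase (801 and 236), and CG32772 (822 and 191) had none of the variants, and their ranks were 37, 56 and 48 in replicate 1, and 263, 166 and 277 in replicate 2. Distal members had a median pooled signal of 501, against 478 for those near a start.

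E-box variants lay at more of these summits than of those in the other groups. At least 1 of the 5 lay within 100 bp of 277 summits (54.9%; 50.4 to 59.3%), against 33.7% (27.3 to 40.5%) of strong peaks with CACGTG, 39.4% (22.9 to 57.9%) of those with the DRE and 38.4% (37.1 to 39.6%) of weaker peaks with neither motif. In windows of the same size moved 1000 bp to either side of the 505 summits the share was 29.2%, and in windows of 100 bp to each side of 13944 protein-coding TSSs it was 25.1%. The interval overlapped that of the DRE group, which held few peaks, and lay above the others. The rule did not use these hexamers. In each replicate alone the share was 50.5% in replicate 1 and 63.2% in replicate 2, a mean of 56.8% ± 8.96 (SD, n = 2), against 36.8% and 39.7% of weaker peaks with neither motif. Members were higher than weaker peaks with neither motif in both replicates, although the spread between the replicates was wide; the other groups were not computed in single replicates. At least 2 variant matches lay at 22.4% (18.8 to 26.3%) of summits, against 10.1% with CACGTG and 10.9% in weaker peaks with neither motif.

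CATGTG was the commonest. It lay at 128 summits (25.3%; 21.6 to 29.4%), against 13.0% of strong peaks with CACGTG, 14.8% (13.9 to 15.7%) of weaker peaks with neither motif, 9.60% of the shifted windows and 5.79% of all promoters. CACGCG lay at 78 (15.4%; 12.4 to 18.9%), against 9.62%, 9.77%, 5.15% and 5.87% in the same order. CACGTT was at 13.3% (10.4 to 16.5%), against 9.13%, 9.53%, 6.14% and 6.83%. CATGCG was at 10.3% (7.79 to 13.3%), against 6.25%, 6.80%, 6.34% and 5.16%. For CACGAG, at 7.92%, against 2.88%, 6.39%, 5.64% and 5.19%, the interval of 5.72 to 10.6% held the share of weaker peaks with neither motif. The sequences shown for vig, rdx, Ant2 and Hsp60A carry the commonest of these variants, and in rdx and Ant2 it is followed by CG.

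All 9 hexamers that differ from CACGTG by a single base were counted as well, a choice made after the data had been seen. Of these, 5 were more frequent than in weaker peaks with neither motif: CATGTG (1.71 times), CACGCG (1.58), CACGTA (1.54), CACGTT (1.39) and CACGAG (1.24). CACGTC (0.915), CAAGTG (0.818), CACGGG (0.692) and CACCTG (0.611) were less frequent. CACCTG, the E-box of Snail-type zinc finger and E-protein factors, was at 5.35% (3.55 to 7.68%), against 8.75% of weaker peaks with neither motif and 9.50% of shifted windows. Any of the 9 lay at 328 of the 505 summits (64.95%), against 55.4% of weaker peaks with neither motif.

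The variants were gathered at the summit. Within 40 bp of it there were 106 variant matches per 20 bp per 1000 peaks, against 38.3 between 300 and 500 bp away, a ratio of 2.78. In strong peaks with CACGTG the values were 42.1 and 35.6 (ratio 1.18), and in weaker peaks with neither motif 61.8 and 32.6 (ratio 1.89). The 3 groups lay close together in the flanks and apart at the centre.

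**Figure D3:**
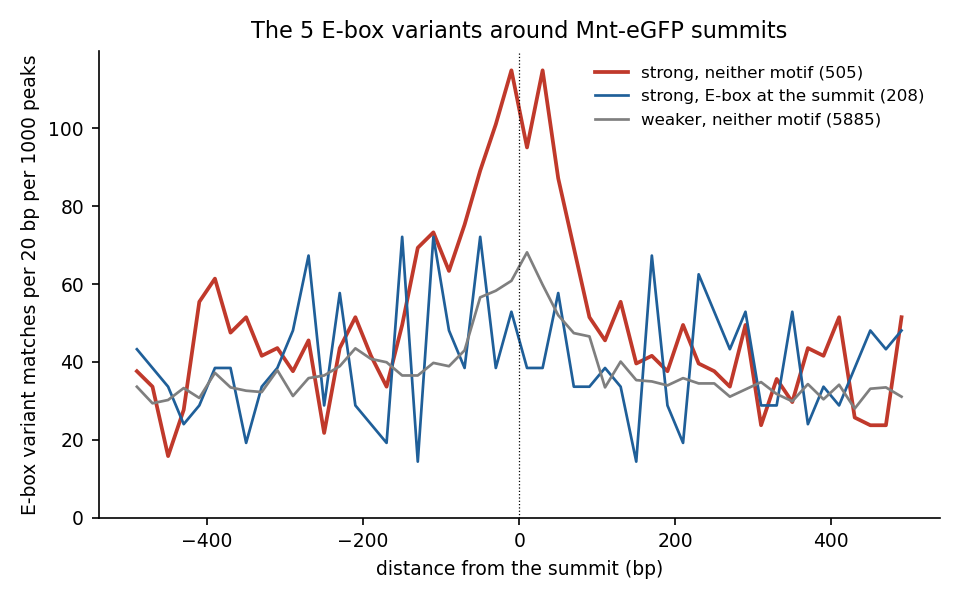
Matches of the 5 E-box variants per 20 bp per 1000 peaks (y axis) by distance from the summit (x axis, bp) for 505 strong peaks with neither motif, 208 with CACGTG and 5885 weaker peaks with neither motif. Strong peaks with neither motif reach 114.9 next to the summit and weaker ones 68.1. Strong peaks with CACGTG have 52.9 next to the summit and reach 72.1 farther out, as from −60 to −40 bp.

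The share with a variant was higher in the strongest sets of peaks with neither motif and level among the weakest. In the strongest 101 members it was 61.4% (51.2 to 70.9%), in the next 3 sets of 101 it was 55.4%, 59.4% and 48.5%, and in the weakest 101 it was 49.5% (39.4 to 59.6%). In the strongest of 10 equal sets of weaker peaks with neither motif it was 47.0% (42.9 to 51.2%), in the next 2 sets 42.8% and 40.9%, and in the other 7 between 34.6% and 39.4% with no order by signal, at 36.1% (32.2 to 40.1%) in the weakest. The intervals of neighbouring sets overlapped, while those of the strongest 101 and of the weakest set did not. Members with no variant (228) had a median pooled signal of 470, those with 1 match (164) 477, those with 2 (86) 527 and those with 3 or more (27) 648. In replicate 2 these medians were 132, 157, 174 and 222, and in replicate 1 343, 344, 363 and 437. The medians were in the same order in both replicates. The vig peak held 5 matches.

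**Figure D4:**
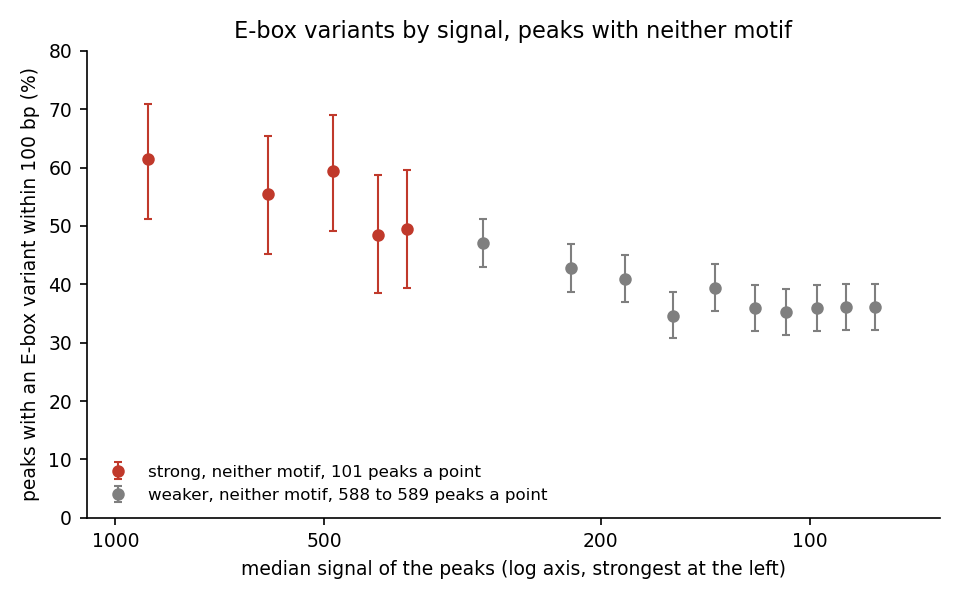
Share of peaks with at least 1 of the 5 E-box variants within 100 bp of the summit (y axis, percent, with 95% exact binomial intervals) by median signal (x axis, log scale, strongest at the left), for 5 equal sets of strong peaks with neither motif and 10 sets of weaker ones. The share is 61.4% in the strongest set and lies between 34.6% and 39.4% in the 7 weakest.

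Near a start and far from one, the comparison differed in size. Within 500 bp of a TSS, 55.0% (50.04 to 59.9%) of strong peaks with neither motif had a variant, against 30.6% of strong peaks with CACGTG and 35.0% (33.5 to 36.4%) of weaker ones. Beyond 500 bp the shares were 54.3% (43.7 to 64.6%), 56.0% (34.9 to 75.6%) and 46.5% (44.1 to 48.8%), with overlapping intervals. CATGTG lay at 34.0% of distal and 23.4% of proximal members, and CACGCG at 9.57% of distal and 16.8% of proximal ones. In distal weaker peaks with neither motif the CATGTG share was 22.6%.

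Longer words show the bases beside the variant. Every 6-mer found at 5% or more of the members (1512) and every 8-mer found at 2% or more (1044) was counted with its reverse complement. Among the 8-mers, CATGTG with A before and C after it lay at 6.34% of members, 1.95% of weaker peaks with neither motif and 0.792% of shifted windows. With CG after it, CATGTG was at 4.55%, 1.46% and 0.792%, as in the rdx and Ant2 sequences above. CACGTT preceded by CG was at 2.77%, 0.799% and 0.198%. Among the 10 6-mers, and likewise among the 10 8-mers, with the highest ratio to weaker peaks with neither motif, 1 held a hexamer that differs from CACGTG by a single base. The 6-mer was CATGTG. The other 6-mers included CTAGAG (8.12% against 4.49%) and CTACGC (7.52% against 4.18%), which match no element of the panel. They also included ACGTGC (8.91% against 5.45%), which overlaps CACGTG by 5 bases and lay at 72.6% of strong peaks with CACGTG. These words were picked after their shares had been seen.

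Other elements were searched in the same windows, on both strands. Motif 1 was at 22 summits (4.36%; 2.75 to 6.52%), against 13.5% of strong peaks with CACGTG, 5.40% of weaker peaks with neither motif, 0.891% of shifted windows and 6.52% of all promoters. The order of members and weaker peaks turned in replicate 2 alone, with 4.25% against 3.89%. All 22 were within 500 bp of a TSS; of the 94 distal summits none had it, which allows a share of up to 3.19%. The core ATCGAT of the DRE was at 7.72%, against 26.9% of strong peaks with CACGTG, 9.82% of weaker peaks with neither motif and 18.3% of promoters. The GATA site, GATAAG, was at 9.31% (6.92 to 12.2%), against 14.4%, 15.7% and 13.0% in the same order of groups. CAGCTG, the E-box of other helix-loop-helix dimers, was at 17.0% (13.9 to 20.6%), against 13.9%, 13.9% and 13.8%. The forkhead site, TGTTTAC, was at 10.1% (7.61 to 13.1%), against 16.3%, 7.71% and 6.60%. GCGCATGC, the site of NRF1 and its fly relative ewg, whose other strand holds CATGCG, was at 9 summits (1.78%; 0.818 to 3.36%), against 0.962%, 0.714% and 0.710%, the strongest of them at eEF1alpha1. GAGA elements, GAGAGAG, were at 17.0% of distal and 5.35% of proximal members, against 10 of 25 distal and 5.46% of proximal strong peaks with CACGTG, and 11.9% of distal and 8.23% of proximal weaker peaks with neither motif.

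Many members had none of these elements. Of the 228 without a panel variant, 67 had another of the 9 hexamers, 34 had CAGCTG, 18 the DRE core and 8 Motif 1, with some holding more than 1 of these. None of these elements was within 100 bp of the summit of 125 members. CG14100, CG11050, Ugalt and Gapdh2, shown above, had no panel variant, no CAGCTG, no DRE core and no Motif 1.

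A CACGTG farther out than 100 bp was also more frequent than in weaker peaks. It lay within 250 bp of 60 members (11.9%; 9.19 to 15.03%), against 5.11% (4.57 to 5.71%) of weaker peaks with neither motif, and within the deposited region of 76 members (15.05%; 12.04 to 18.5%), against 3.79% (3.32 to 4.31%). Median region width was 456 bp in both groups. The strongest such members were vig (nearest CACGTG 227 bp away), CG11050 (197 bp) and RpL34b, where the hexamer lay 99 bp from the summit by its middle and so reached past the edge of the window. The start and end of the region were shared with another summit at 127 members (25.1%), against 25.5% of strong peaks with CACGTG and 3.35% of weaker peaks with neither motif. In 27 of the 505 the other summit had CACGTG, and in 99 it was weaker than the threshold.

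A member summit lay within 500 bp of a TSS of 560 protein-coding genes, 4.02% of 13945, and the summit of a strong peak with CACGTG near 259 (1.86%). Both were found at 26 genes. The 28 gene lists set beside these shares were compiled with earlier results of these data known, and each count below is a description.

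Genes of ribosome production had both kinds of peak, in different shares. Of 44 nucleolar and ribosome biogenesis factors, 12 (27.3%) had a member summit and 30 (68.2%) a strong peak with CACGTG, while of 92 cytosolic ribosomal protein genes 28 (30.4%) had a member and 15 (16.3%) a peak with CACGTG. A member and a strong peak with CACGTG were found together at 4 of the 44 genes and at 1 of the 92. Both lists stood above the 4.02% and 1.86% of all genes, with the kinds of peak in opposite order. That order holds for the 100 bp window of the rule, and other windows were not tested for these lists. It may not hold in a wider one, because CACGTG lay within 250 bp of the summit at many of the 28 ribosomal protein genes. Among all members 11.9% had it that near. Examples were RpS20 (106 bp from the summit), RpL3 (150 bp), RpS2 (155 bp), RpS16 (200 bp) and RpS30 (201 bp). RpL4 (211 bp), RpL14 (229 bp), RpS21 (235 bp) and RpL13 (243 bp) were further examples. At others, such as RpS13 (4052 bp) and RpS3 (4792 bp), the nearest was far away. The 12 genes of the nucleolar and biogenesis list included Non1, a nucleolar GTPase (837 in replicate 1 and 328 in replicate 2), and Csl4 (782 and 306). Nlp and Nph among them were counted from the same summit. Ssl1 and bor, also among the 12, are not established factors of this kind, so the count may be too high. All 12 shared the summit with the start of another gene within 500 bp, so the genes a peak belongs to cannot be told apart. Of the 28 ribosomal protein genes, 16 shared it, 15 had an E-box variant and 3 had Motif 1.

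Among the ribosomal protein genes RpL34b stood first (1101 in replicate 1 and 370 in replicate 2), followed by RpS27 (713 and 117) and RpL14 (621 and 175). RpS2 had 490 and 244. Summits were close to the start: at 0 bp for RpS27, 14 bp upstream for RpL14, 61 bp upstream for RpL34b and 65 bp downstream for RpS2. CATGTG was found at RpL14 and CATGCG at RpS2, while RpL34b and RpS27 had no panel variant. A start of CG8132 lay within 500 bp of the RpL34b summit too, and a start of Nup37 near that of RpS27. Of 73 mitochondrial ribosomal protein genes, 9 (12.3%) had a member and 5 (6.85%) a strong peak with CACGTG. mRpS6 (625 and 267), mRpS23 (591 and 167), mRpL41 (582 and 101) and mRpL21 (464 and 183) led, and 8 of the 9 shared the summit with another gene.

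Transcription by RNA polymerases I and III showed as many peaks of each kind. Of 23 genes, 5 (21.7%) had a member and 5 a strong peak with CACGTG. Bdp1, of the initiation factor TFIIIB, had 517 in replicate 1 and 164 in replicate 2. Among the subunit genes, Polr1D had 468 and 194 and Polr1B 398 and 215. At 4 of the 5 genes the summit also lay within 500 bp of the start of another gene. For RNA polymerase II, 1 of 12 subunit genes had a member, Polr2F (551 and 177), with CACGCG and CATGCG.

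Of 54 translation factor genes, 7 (13.0%) had a member, against 1 (1.85%) with a strong CACGTG peak and 5 (9.26%) with a strong DRE peak. eEF1alpha1, the elongation factor that brings aminoacyl-tRNA to the ribosome, had 681 in replicate 1 and 271 in replicate 2. Its summit lay 254 bp upstream of the TSS and nearer, at 165 bp downstream, to the start of snoRNA:Me28S-A1322. The initiation factor genes eIF3h (557 and 250) and eIF2beta (554 and 245) came next, then eIF4EHP (487 and 238), whose protein binds the cap and represses translation. A panel variant lay at 6 of the 7; eIF3h had none. Of 32 aminoacyl-tRNA synthetase genes, HisRS (1144 and 392.4) and SerRS (310 and 98.4) had a member (6.25%).

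Of 29 insulin and TOR genes, 8 (27.6%) had a member and 1 (3.45%) a strong peak with CACGTG. S6k led (767 in replicate 1 and 350 in replicate 2). foxo, the transcription factor restrained by insulin signalling, had 675 and 242, with the summit 27 bp downstream of the TSS and a CACGAG. srl, the fly relative of PGC-1 that promotes mitochondrial gene expression, had 436 and 272; its replicate 1 summit lay 220 bp from the pooled one, and a peak with CACGTG lay 201 bp away, so the 436 may belong to another summit. Pi3K21B, the adaptor of phosphoinositide 3-kinase, had 415 and 132. S6k, foxo and Pi3K21B stood above the median member of replicate 1, which was 348, and Pi3K21B below that of replicate 2, which was 152. The other members were at REPTOR, chico, InR and Sesn, with pooled signals from 417 to 527. Of the 8, 6 had a panel variant, and Pi3K21B and Sesn had none.

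Glycolysis gave 3 of 13 genes (23.1%), against 0 with a strong CACGTG peak, which allows up to 23.1%. These were Gapdh2 (1044 in replicate 1 and 319 in replicate 2), Eno, the enolase gene (598 and 143), and Pgk, the phosphoglycerate kinase gene (322 and 109). None of the 3 had a panel variant or shared its summit with another gene, and all 3 summits lay 165 to 226 bp upstream of the TSS. Oxidative phosphorylation gave 4 of 92 genes (4.35%, beside 4.02% of all genes), led by COX5A (357 and 141) and COX6B (384 and 112). Of 33 V-ATPase genes, Vha16-1 (347 and 210) and Vha36-1 (318 and 75.9) had a member (6.06%).

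In the Myc network, 4 of 14 genes (28.6%) had a member and 3 (21.4%) a strong peak with CACGTG. rept, an ATPase that binds Myc, had 464 in replicate 1 and 183 in replicate 2 with a CATGTG 73 bp from the summit, and shares the peak with mRpL21. Sin3A, the corepressor that Mxd and Mnt proteins recruit in mammals, had 437 and 200. The Sin3A summit lay 427 bp upstream of that gene's TSS and nearer, at 188 bp upstream, to the start of lncRNA:CR30055. Mondo, the sugar-responsive relative of Myc, had 301 and 233, with the CACGCG shown above 19 bp from the summit, and Mnt itself 217 and 190 at a summit 92 bp upstream of a TSS, also with CACGCG. All 4 had a panel variant. Mondo and Mnt stood below the median member in replicate 1 (348) and above it in replicate 2 (152).

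Chromatin and stress genes followed. Of 24 insulator and core promoter factor genes, 4 (16.7%) had a member, against 0 with a strong CACGTG peak, which allows up to 12.5%: Chro (735 in replicate 1 and 190 in replicate 2), Nelf-E (621 and 175), Dref, the factor that binds the DRE (462 and 154), and Cp190 (452 and 114). Each of these 4 summits lay near the start of another gene too, RpL14 for Nelf-E and RpL13 for Dref. Of 34 chromatin remodelling and Polycomb genes 5 (14.7%) had a member, among them ph-p (505 and 156), brm, the ATPase of the SWI/SNF complex (412 and 86.1), Gcn5 (341 and 119) and ph-d (300.5 and 165). In the heat shock list, 4 of 20 had one: Hsp60A (895 and 366), Hsp83, the gene of Hsp90 (544 and 208), Hsp27 (409 and 167) and Hsc70-4 (312 and 141). Stress regulators gave 4 of 18 (22.2%), including foxo, Keap1, the sensor of oxidative stress (405 and 220), and Gadd45 (282 and 107).

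Smaller counts came from other lists. Cell cycle genes gave 3 of 31 (9.68%): E2f1 (338 in replicate 1 and 174 in replicate 2), its partner Dp (271 and 99.5) and dpa, a subunit gene of the replicative helicase (307 and 106, with the replicate 2 summit 117 bp from the pooled one). Helix-loop-helix factors outside the Myc network gave 3 of 36 (8.33%), net (308 and 187), emc (282 and 173) and crp (266 and 131). The circadian list gave vri alone (218 and 179), 1 of 16. Proteasome and Rab genes gave 1 each, Prosalpha7 (324 and 113) and Rab14 (272 and 160), and their shares of 2.08% and 2.78% were under that of all genes. No member summit lay within 500 bp of a TSS of any of 179 chemosensory receptor genes, which allows a share of up to 1.68%. Only 3 of these 179 genes had the summit of any reproducible peak within 500 bp of a TSS, against 5316 of 13945 protein-coding genes. The CCT chaperonin, ecdysone response, autophagy, Hippo, antimicrobial peptide and eggshell lists, of 8 to 20 genes each, had no member within 500 bp of a TSS either. This allows a share of up to 37.5% in the smallest list, CCT, and up to 16.7% in the eggshell list. Any reproducible peak lay at 0 of 14 antimicrobial peptide and 2 of 18 eggshell genes. It lay at 6 of 8 CCT, 10 of 14 ecdysone response, 13 of 20 autophagy and 11 of 18 Hippo genes. Members farther from a start were not counted in these lists. Atg17, for example, was the nearest protein-coding gene of 2 distal members, the stronger at a pooled signal of 790.

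**Figure D5:**
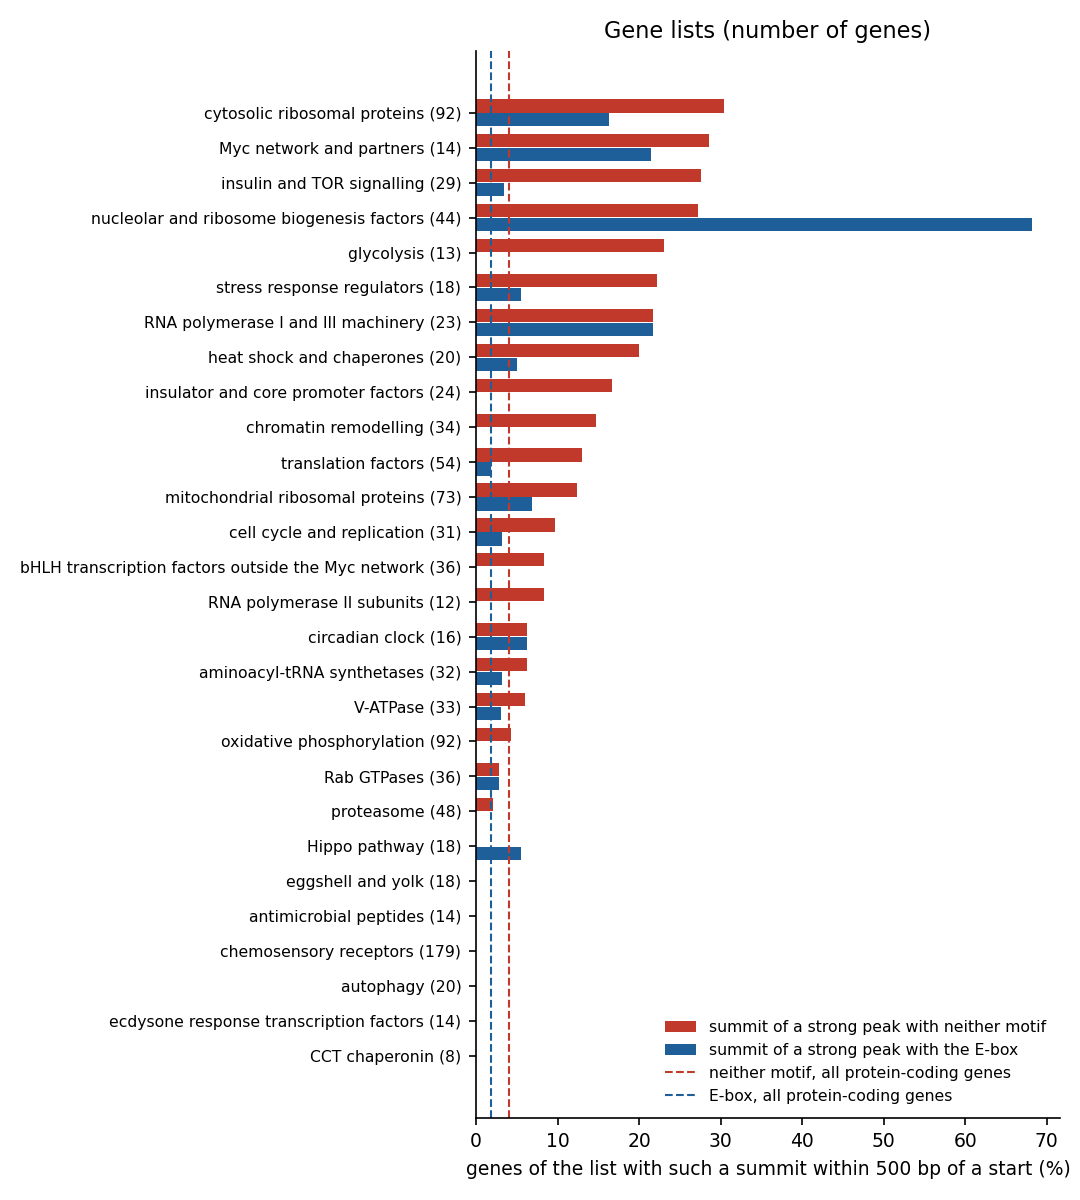
Share of the genes of each of 28 lists (rows; number of genes in parentheses) with the summit of a strong peak with neither motif (upper bar) or with CACGTG (lower bar) within 500 bp of a TSS, in percent; dashed lines mark 4.02% and 1.86%, the shares over all protein-coding genes. Cytosolic ribosomal protein, insulin and TOR, and glycolysis genes have the longer upper bar, and nucleolar genes the longer lower bar, at 68.2%.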

How the data were processed

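Mnt-eGFP ChIP-seq of whole adult female flies was deposited as peak lists, 4 on dm6 and 4 on dm3; the dm3 lists were not used here. The aligner and the peak caller were not given in the sources used here. The deposited lists hold a signal value and a −log10 q-value for each region, both made by the authors; the −log10 q-value was at its cap of 4.22 in every reproducible (optimal) peak and was not used for ranking. All of these peaks were in the pooled list. Each replicate list held 30000 regions, and a peak was matched to the replicate region that overlapped it by at least 1 bp and had the nearest summit. Read depth is unknown. Motifs and distances came from the Release 6 (dm6) sequence and Ensembl release 115 (35497 transcripts of 18164 genes, 13945 protein-coding), with code tested on simulated data. Python 3.11.15, numpy 2.4.6, pandas 2.3.3, scipy 1.17.1 and matplotlib 3.10.9 were used. Intervals are 95% exact Clopper-Pearson intervals. Where no gene or summit was found, the share said to be allowed is 3 divided by the number examined. That is an approximation and not a Clopper-Pearson limit. With 1 group of 2 replicates no test was run.

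The members and lists were chosen with earlier results of these data known. Genes were named by rule: the 25 strongest members, the 2 peaks on either side of the threshold, up to 4 per gene list, the strongest for each described motif, the 6 strongest beyond 500 bp, the 3 strongest with CACGTG elsewhere in the region, and the 5 highest and 5 lowest rank ratios. In the lists, 14 symbols were found under a newer symbol. Motif windows, thresholds, distances and single replicates were varied. The result for 1 gene of the lists is not reported here.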

Additional observations from a re-analysis of the deposited data

How the results depend on the processing

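No paired analysis was possible because the samples form 1 group. With 505 members as reported, a threshold that halved the set of strong peaks gave 209 and one that doubled it 1117, and each replicate alone gave 494 to 515. Windows of 50 and 250 bp, 1 summit per region and barring the DRE core left between 427 and 608. The share within 500 bp of a TSS (81.4%) was 75.3 to 80.8% in single replicates, 76.2% within 250 bp and 89.7% within 1000 bp. The share with an E-box variant (54.9%) was 34.7% in a 50 bp window and 76.6% in a 250 bp window, by the construction of the window, 50.5 to 63.2% in single replicates, and 64.95% with all 9 hexamers, a choice added after seeing the data. Weaker peaks with neither motif had 23.4% and 63.5% in those windows, and members were higher at every setting run. Motif 1 (4.36%) was at 2.96% and 7.49% in the 50 and 250 bp windows, 5.74% at the stricter and 5.10% at the looser signal threshold, 3.91% with 1 summit per region, 4.72% with the DRE core barred, and 4.08 to 4.25% in single replicates. Members were below weaker peaks with neither motif as reported (4.36% against 5.40%), but above them at the stricter threshold (5.74% against 5.31%) and in replicate 2 alone (4.25% against 3.89%). The share in the top of both replicates (59.8%) was 90.5% with top lists of doubled length and 99.8% with top lists as long as the optimal list. The cause of the moves not due to a window or a length of list was not tested. With 2 replicates and no read counts, small differences in signal cannot be resolved.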

Other observations

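Non-coding genes were the only annotated genes with a start within 500 bp at 6 of the 505 strong peaks with neither motif. lncRNA:CR31044 had the strongest of them, with a signal of 694 in replicate 1 and 230 in replicate 2. Uhg4, a host gene of small nucleolar RNAs, had 512 and 294. The other 4, at 3 long non-coding RNA genes and a tRNA gene for alanine, had pooled signals from 365 to 518.

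In all, 31 genes were the nearest protein-coding gene of more than 1 member. Tlk, CHES-1-like, a forkhead family gene, and Mnt had 4 each, with the strongest at a pooled signal of 1028, 893 and 858. Mnt is the tagged gene, and Tlk lies near it, with member summits at chrX:3689271 (Mnt) and chrX:3742224 (Tlk). Whether the insertion in this line alters the signal there was not tested. COX7AL2 had 3. S6k, foxo, InR and REPTOR, of the insulin and TOR list, had 2 each.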
